A study of Mus musculus with 53 samples.

Results

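Macrophage and Kupffer cell genes were followed as a set of 10 genes, Clec4f, Vsig4, Timd4, Cd5l, Marco, Adgre1, Gpnmb, Trem2, Cd14 and Cx3cr1, out of 19057 genes that the bead array measured with at least 1 named probe. The members were chosen by their symbols, and each was represented by the probe with the highest mean signal over the arrays. They were described in 3 classes: 6 genes of resident Kupffer cells (Clec4f, Vsig4, Timd4, Cd5l, Marco and Adgre1), 2 genes of lipid-associated macrophages (Gpnmb and Trem2), and 2 receptors shared by monocytes and macrophages (Cd14 and Cx3cr1).

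Kupffer cells are the resident macrophages of the liver sinusoids. They are seeded in the embryo, renew themselves in place, take up bacteria, complement-coated particles and aged red cells from portal blood, and carry a set of surface receptors that other tissue macrophages lack in part. When Kupffer cells are lost, blood monocytes enter the liver and can acquire the resident genes stepwise. Macrophages that meet dying cells and lipid, in fatty liver, in adipose tissue and in tumors, are known to carry Trem2 and Gpnmb.

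The study asked how tumors form after loss of the spindle assembly checkpoint gene Mad2l1 together with the tumor suppressor gene p53. All animals were mice of a mixed B6-129Sv background. The p53 f/f liver tumors came from Mad2f/f p53f/f Alb-Cre+ animals, and the p53 f/+ liver tumors from Mad2f/f p53f/+ Alb-Cre+ animals. In both, the Cre recombinase is driven by the albumin promoter and acts in hepatocytes. T-cell acute lymphoblastic leukemias (T-ALL) came from Mad2f/f p53f/f Lck-Cre+ animals, in which Cre acts in T cells. Healthy livers and healthy thymi came from wild-type mice. The labels give no ages, and they do not say which liver tumor was an adenoma and which a carcinoma. Total RNA of the whole tissue piece was hybridised, so fewer cells of a type and less RNA per cell cannot be told apart in any value below. The groups held 20 p53 f/f tumors with a signal from 15 animals, 8 p53 f/+ tumors from 5 animals, 10 healthy livers, 9 T-ALL and 5 healthy thymi, 52 arrays in all.

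Values are log2 normalized signals, on which undetected probes lie mostly near 5 and the dimmest detected probe of an array averaged between 5.38 and 6.14 in the 5 groups. Between 28.28% and 40.27% of probes were detected on each array, apart from T-ALL 5 with 4.558%. T-ALL 5 was nearly blank, and its normalized values rest on signals at background. Its Trem2 value of 11.92, for instance, stood on a signal of 24.90, against 683.0 for the brightest T-ALL. Liver tumor 13 was dim but measured, with Gpnmb at a signal of 5669 and Trem2 at 531.7. Liver tumor 12, labelled p53 f/f, had no signal and was left out of all fits on signals. It entered only the alternative fits on the authors' log2 values, which hold 21 p53 f/f tumors. The array labelled healthy liver 1 stood apart from the other healthy livers. Over 11517 genes its correlation was 0.849 with the average liver tumor and 0.746 with the average of the remaining healthy livers. Its mean over 7 hepatocyte markers was 9.74, against 11.57 to 11.87 in the other 9, and its mean over 19 pan-macrophage genes was 9.00, against 6.59 to 8.20. Results on healthy liver and on T-ALL are therefore given with and without these arrays. The defining markers were not all measured: of 7 hepatocyte markers the probes for Alb and Fgb were detected on 0 of 10 healthy livers, and of 7 thymocyte markers that for Cd8a on 0 of 5 thymi.

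The resident Kupffer cell genes fell into measured and unmeasured members. Clec4f, a C-type lectin that rodents express almost only in Kupffer cells, and Vsig4, a complement receptor that captures opsonised particles, were bright in healthy liver. Timd4, a receptor for phosphatidylserine on dying cells, and Adgre1, which encodes the F4/80 antigen used to mark mouse macrophages, lay at the detection limit. They were detected on 7 and 5 of 10 healthy livers. Marco, a scavenger receptor for bacteria and particles, was detected on 1 of 10 healthy livers. Cd5l, a secreted protein of macrophages, was detected on 0 of 52 arrays, so nothing can be said of it.

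The starts of Clec4f and Vsig4 are shown because the levels of these genes ran together across tumors. Both windows run from 250 bases before to 50 bases after the annotated start (RefSeq, GRCm38.p6), 5′ to 3′ on the coding strand. They were searched on both strands for GAGGAA (PU.1, the macrophage factor), CACGTG (the E-box of MiT/TFE factors), TGANTCA (AP-1) and TTGCNNAA (C/EBP), which do not overlap in the windows shown, and matches are in capitals. Clec4f lies at chr6:83656067-83656366 on the minus strand and holds none of them. Vsig4 lies at chrX:96293389-96293688 on the minus strand and holds GAGGAA at 2 places, from -155 and from -53 relative to the start. GAGGAA occurred in 28.3% of 32851 promoters of the same length, CACGTG in 7.2%, TGANTCA in 7.8% and TTGCNNAA in 10.8%.
Clec4f: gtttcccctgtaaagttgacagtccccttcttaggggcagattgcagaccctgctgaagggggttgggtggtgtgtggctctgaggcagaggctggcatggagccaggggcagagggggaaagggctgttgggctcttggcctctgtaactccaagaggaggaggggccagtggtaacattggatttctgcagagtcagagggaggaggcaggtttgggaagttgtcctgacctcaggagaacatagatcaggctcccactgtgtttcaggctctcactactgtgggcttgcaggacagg
Vsig4: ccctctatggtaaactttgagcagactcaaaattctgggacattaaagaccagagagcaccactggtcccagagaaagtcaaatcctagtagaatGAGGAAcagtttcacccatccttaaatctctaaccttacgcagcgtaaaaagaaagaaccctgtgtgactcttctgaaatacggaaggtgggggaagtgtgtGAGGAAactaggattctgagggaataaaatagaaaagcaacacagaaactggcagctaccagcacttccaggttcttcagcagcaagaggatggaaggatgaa

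Clec4f in healthy liver ranged from 4.87 in healthy liver 1 to 11.07, with a median of 10.41. The other 9 healthy livers lay within 9.95 to 11.07, a narrow band. In p53 f/f tumors it ranged from 4.76 to 11.50 with a median of 8.04. The lowest, median and highest p53 f/+ tumors were at 4.68, 9.01 and 11.71. Tumors therefore spread over the whole range from background to the level of healthy liver, and the probe went undetected in 4 of 20 p53 f/f tumors and 2 of 8 with p53 f/+. Against all 10 healthy livers, p53 f/f tumors differed by −1.86 ± 0.89 (SE, adjusted p = 0.113). Without healthy liver 1 the difference was −2.41 ± 0.86 (adjusted p = 0.0249), a 5.32-fold fall, and 13 of 20 tumors lay below all 9 livers while 2 lay above all of them. The p53 f/+ tumors differed by −1.42 ± 1.11 (adjusted p = 0.434), or −1.96 ± 1.06 without healthy liver 1 (adjusted p = 0.176).

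Vsig4 followed the same shape. Healthy livers ranged from 6.21 to 11.70 with a median of 10.49, p53 f/f tumors from 4.98 to 12.15 with a median of 8.80, and p53 f/+ tumors from 5.28 to 12.01 with a median of 11.25. The groups overlapped at both ends. The difference in p53 f/f tumors was −1.40 ± 0.84 (adjusted p = 0.216), and −1.82 ± 0.83 without healthy liver 1 (adjusted p = 0.0821). For p53 f/+ it was 0.03 ± 1.05 (adjusted p = 0.991), with a change of sign to −0.41 without healthy liver 1 (adjusted p = 0.809).

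Among the dimmer resident genes only Timd4 passed the test in p53 f/f tumors, with a log2 difference of −0.47 ± 0.14 (adjusted p = 0.0126, and −0.53, adjusted p = 0.00419, without healthy liver 1). Healthy livers ran from 4.98 to 6.14 and p53 f/f tumors from 4.58 to 6.16, with 7 of 10 and 5 of 20 arrays detected, so this is a difference at the edge of detection. It was not called when arrays were scaled to a common median in place of quantiles (−0.21, adjusted p = 0.226). Timd4 in p53 f/+ tumors differed by −0.32 ± 0.18 (adjusted p = 0.25). Adgre1 pointed the other way without passing, at 0.59 ± 0.29 in p53 f/f tumors (adjusted p = 0.129) and 0.63 ± 0.37 in p53 f/+ tumors (adjusted p = 0.263). With median scaling Adgre1 was called higher in p53 f/f tumors (0.82, adjusted p = 0.0233). That scaling also called more of all genes higher in p53 f/f tumors, and fewer lower, than quantile normalization did. It was detected on 16 of 20 p53 f/f tumors and 5 of 10 healthy livers. Marco differed by 0.05 ± 0.19 and −0.07 ± 0.24 in the 2 tumor groups (adjusted p = 0.861 and 0.888).

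**Figure D1:**
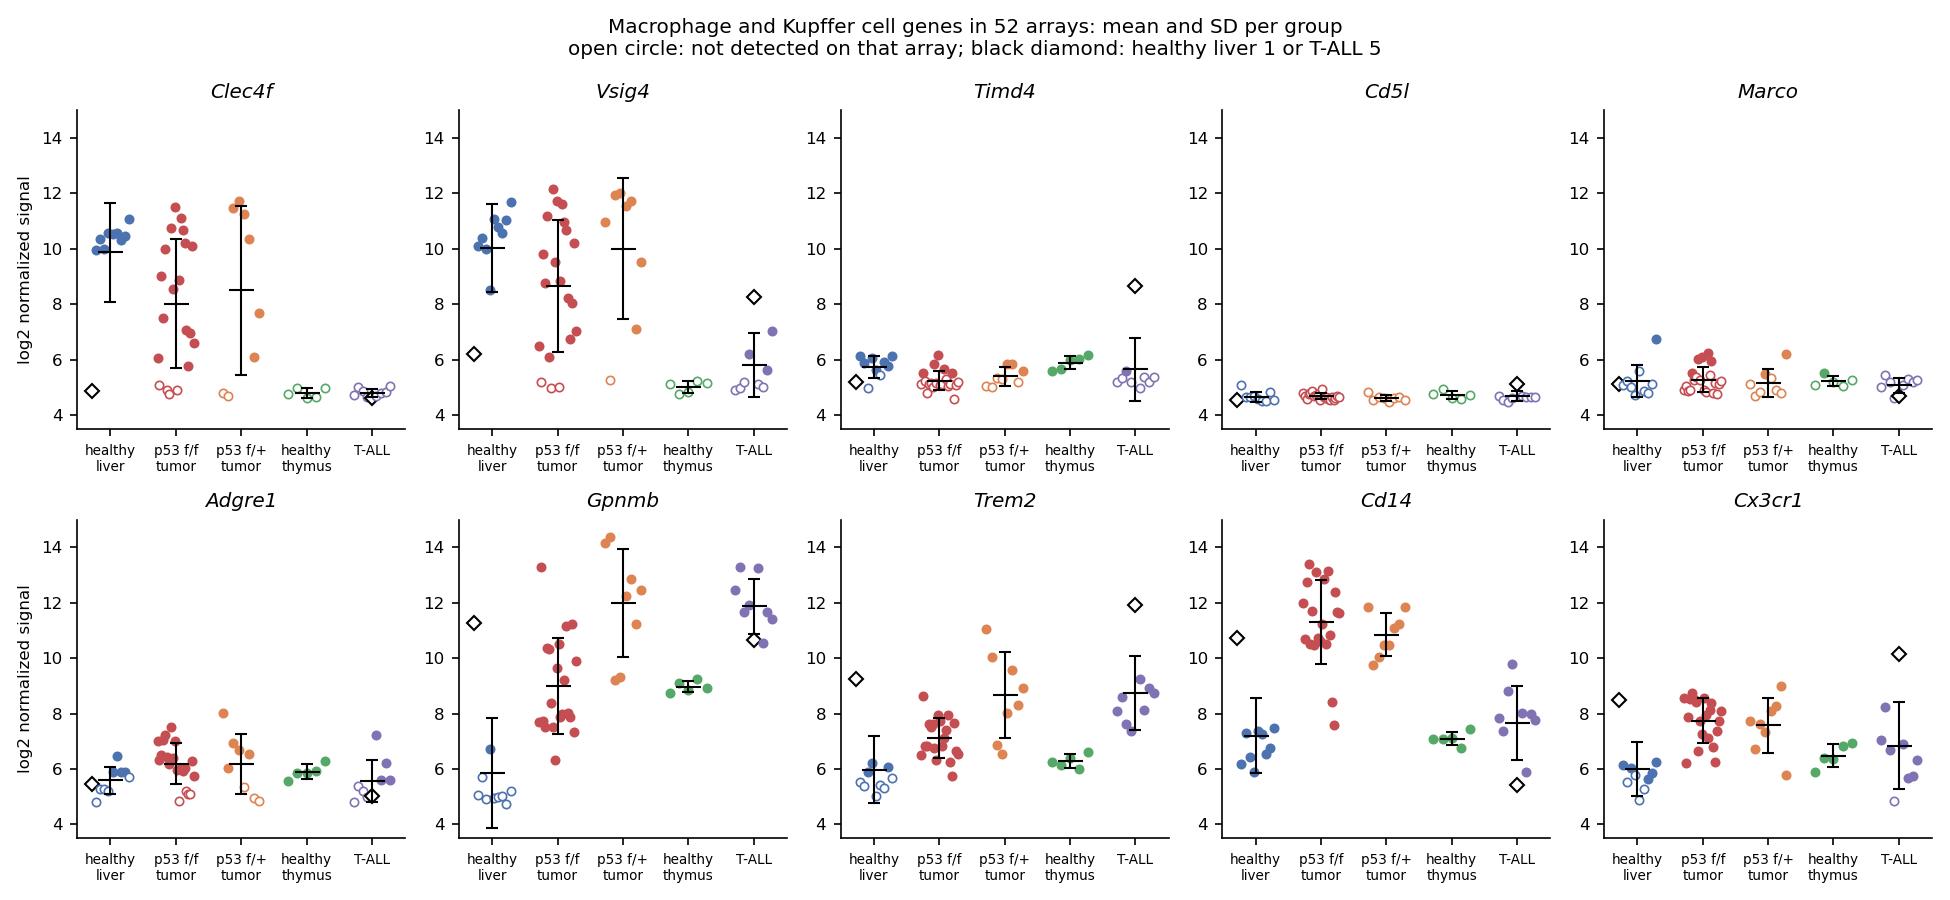
Log2 normalized signal of the 10 genes (vertical axis, 1 panel per gene) in the 5 groups, 1 point per array, with the mean and SD of each group. Open circles are arrays where the probe was not detected and black diamonds are healthy liver 1 and T-ALL 5. Gpnmb and Trem2 sit low in healthy liver apart from healthy liver 1, at 11.28 and 9.26, while Clec4f and Vsig4 spread from background to the healthy level in both tumor groups.

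Gpnmb and Trem2 rose in both kinds of liver tumor. Gpnmb encodes a transmembrane glycoprotein of late endosomes and lysosomes, made by macrophages under lysosomal load and also by melanocytes and bone cells. Trem2 encodes a lipid-sensing receptor that signals through the adaptor Tyrobp. Their starts are shown for the same reason as above, since their levels also ran together across tumors. Gpnmb lies at chr6:49036268-49036567 on the plus strand and holds TGANTCA from 9 to 15 bases after the start. Trem2 lies at chr17:48346151-48346450 on the plus strand and holds GAGGAA read on the opposite strand from -40, TGANTCA from -9 to -3 and TTGCNNAA from 23 to 30. CACGTG was found in neither window, and Trem2 and Gpnmb shared TGANTCA. A match describes the letters only.
Gpnmb: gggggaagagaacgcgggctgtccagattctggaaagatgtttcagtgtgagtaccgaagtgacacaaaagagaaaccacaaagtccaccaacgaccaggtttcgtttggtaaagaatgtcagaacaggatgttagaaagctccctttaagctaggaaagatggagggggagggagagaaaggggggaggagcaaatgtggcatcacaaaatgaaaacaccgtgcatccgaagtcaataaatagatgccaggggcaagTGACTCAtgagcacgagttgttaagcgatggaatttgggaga
Trem2: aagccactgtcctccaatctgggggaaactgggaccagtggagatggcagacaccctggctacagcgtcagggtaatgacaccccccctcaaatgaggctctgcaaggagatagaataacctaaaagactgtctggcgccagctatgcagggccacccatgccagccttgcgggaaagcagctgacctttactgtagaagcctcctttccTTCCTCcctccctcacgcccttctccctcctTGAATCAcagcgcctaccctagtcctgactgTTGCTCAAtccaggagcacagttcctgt
Promoter windows were in the table for 8 of the 10 members. Of the others searched, Cd5l and Marco held GAGGAA at 1 place each, and Timd4 and Cx3cr1 held none of the 4 motifs.

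Gpnmb was at background in most healthy livers, with a lowest value of 4.74, a median of 5.05 and detection on 2 of 10 arrays. The highest was healthy liver 1 at 11.28, and the next was 6.73. The 20 p53 f/f tumors ran from 6.34 through a median of 8.20 to 13.29, and the 8 p53 f/+ tumors from 9.20 through 12.36 to 14.39. Every liver tumor was detected and lay above the healthy mean. Against healthy liver Gpnmb was higher by 3.10 ± 0.71 in p53 f/f tumors, 8.59-fold (adjusted p = 0.00115), and by 6.19 ± 0.89 in p53 f/+ tumors, 72.9-fold (adjusted p = 1.95e-05). Without healthy liver 1 the differences were 3.71 ± 0.64 (adjusted p = 1.82e-05) and 6.78 ± 0.78 (adjusted p = 8.27e-08), with 19 of 20 and 8 of 8 tumors above all 9 livers. Since most healthy livers were undetected, these folds start from background signal. On the log2 values that the authors normalized, with liver tumor 12 included, the p53 f/f difference was 1.32 and was not called (adjusted p = 0.0957).

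The array carried 4 probes for Gpnmb, and the rise in p53 f/f tumors rested on the brightest. Its mean signal over 52 arrays was 2300, against 98.63, 36.07 and 3.065 for the others. With the next brightest probe, detected on 6 of 20 p53 f/f tumors and 1 of 10 healthy livers, p53 f/f tumors differed by 0.44 (adjusted p = 0.536) and p53 f/+ tumors by 2.60 (adjusted p = 0.00537). The third gave −0.17 (adjusted p = 0.624) and 0.86 (adjusted p = 0.0446). The difference of p53 f/+ tumors from healthy liver was thus called with 3 probes and that of p53 f/f tumors with 1. The second Clec4f probe differed by −0.65 in p53 f/f tumors (adjusted p = 0.0783), the same direction as the bright one.

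Trem2 in healthy liver ran from 5.01 to 9.26 with a median of 5.61, again with healthy liver 1 at the top and the next at 6.21. The p53 f/f tumors ran from 5.76 through 6.98 to 8.65, and the p53 f/+ tumors from 6.53 through 8.62 to 11.06. The 11.06 belonged to the dim liver tumor 13. All 28 liver tumors were detected, against 4 of 10 healthy livers. The rise was 1.14 ± 0.41 in p53 f/f tumors, 2.20-fold (adjusted p = 0.0338), and 2.77 ± 0.51 in p53 f/+ tumors, 6.80-fold (adjusted p = 0.000475). Without healthy liver 1 it was 1.51 ± 0.36 (adjusted p = 0.0011) and 3.12 ± 0.44 (adjusted p = 3.17e-06), and 19 of 20 and 8 of 8 tumors lay above all 9 livers. The p53 f/f call was near its threshold with all arrays: it was lost when any of healthy livers 2, 3, 6, 7, 8 or 10, or the animal of liver tumors 5 and 6, was left out, at adjusted p values of 0.0526 to 0.0703 and differences of 1.03 to 1.10. It was also lost with a normalization offset of 50 (0.78, adjusted p = 0.0887) and on the authors' log2 values (0.33, adjusted p = 0.316).

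Cd14 and Cx3cr1 also rose. Cd14 hands endotoxin to the Tlr4 and Ly96 receptor complex, and in rodents hepatocytes can make it as well as monocytes and macrophages. Healthy livers ran from 5.89 through 7.01 to 10.73, p53 f/f tumors from 7.60 through 11.43 to 13.39, and p53 f/+ tumors from 9.76 through 10.79 to 11.84. The highest healthy liver was again number 1, and without it the highest was 7.49, below every tumor. Cd14 was higher by 4.11 ± 0.51 in p53 f/f tumors, 17.2-fold (adjusted p = 1.52e-07), and by 3.68 ± 0.63 in p53 f/+ tumors, 12.8-fold (adjusted p = 0.000201). With healthy liver 1 left out the values were 4.50 (adjusted p = 1.87e-09) and 4.06 (adjusted p = 2.97e-06), and all 20 and all 8 tumors lay above the 9 livers. Among the members, Cd14 had the smallest adjusted p in p53 f/f tumors with and without that array.

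Cx3cr1, the receptor for the chemokine fractalkine, ran from 4.87 through 5.83 to 8.50 in healthy liver, from 6.23 through 7.92 to 8.75 in p53 f/f tumors and from 5.78 through 7.68 to 9.00 in p53 f/+ tumors. It rose by 1.74 ± 0.35 in p53 f/f tumors (adjusted p = 0.000253) and by 1.60 ± 0.44 in p53 f/+ tumors (adjusted p = 0.013). The rises were 2.02 ± 0.32 (adjusted p = 4.47e-06) and 1.87 ± 0.39 (adjusted p = 0.000522) when healthy liver 1 was left out, with 18 of 20 and 7 of 8 tumors above all 9 livers. The p53 f/+ call was lost with median scaling (1.52, adjusted p = 0.0535) and on the authors' log2 values (0.41, adjusted p = 0.0702).

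Of the 9 members tested in p53 f/f tumors, 4 rose and 1 fell. Over all 11517 genes tested, 15.1% rose and 14.2% fell at an adjusted p under 0.05, and 19.4% and 18.8% did without healthy liver 1, where 4 members rose and 2 fell. Among p53 f/+ tumors 4 of 9 members rose and 0 fell, beside 7.65% and 5.04% of all genes, or 13.4% and 11.7% without healthy liver 1. The median log2 difference was −0.47 over the 5 tested resident Kupffer cell genes in p53 f/f tumors and 2.12 over Gpnmb and Trem2, against −0.01 over all genes. In p53 f/+ tumors the same medians were −0.07 and 4.48, against −0.02. Both comparisons share the same healthy livers, so they are only set side by side.

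**Figure D2:**
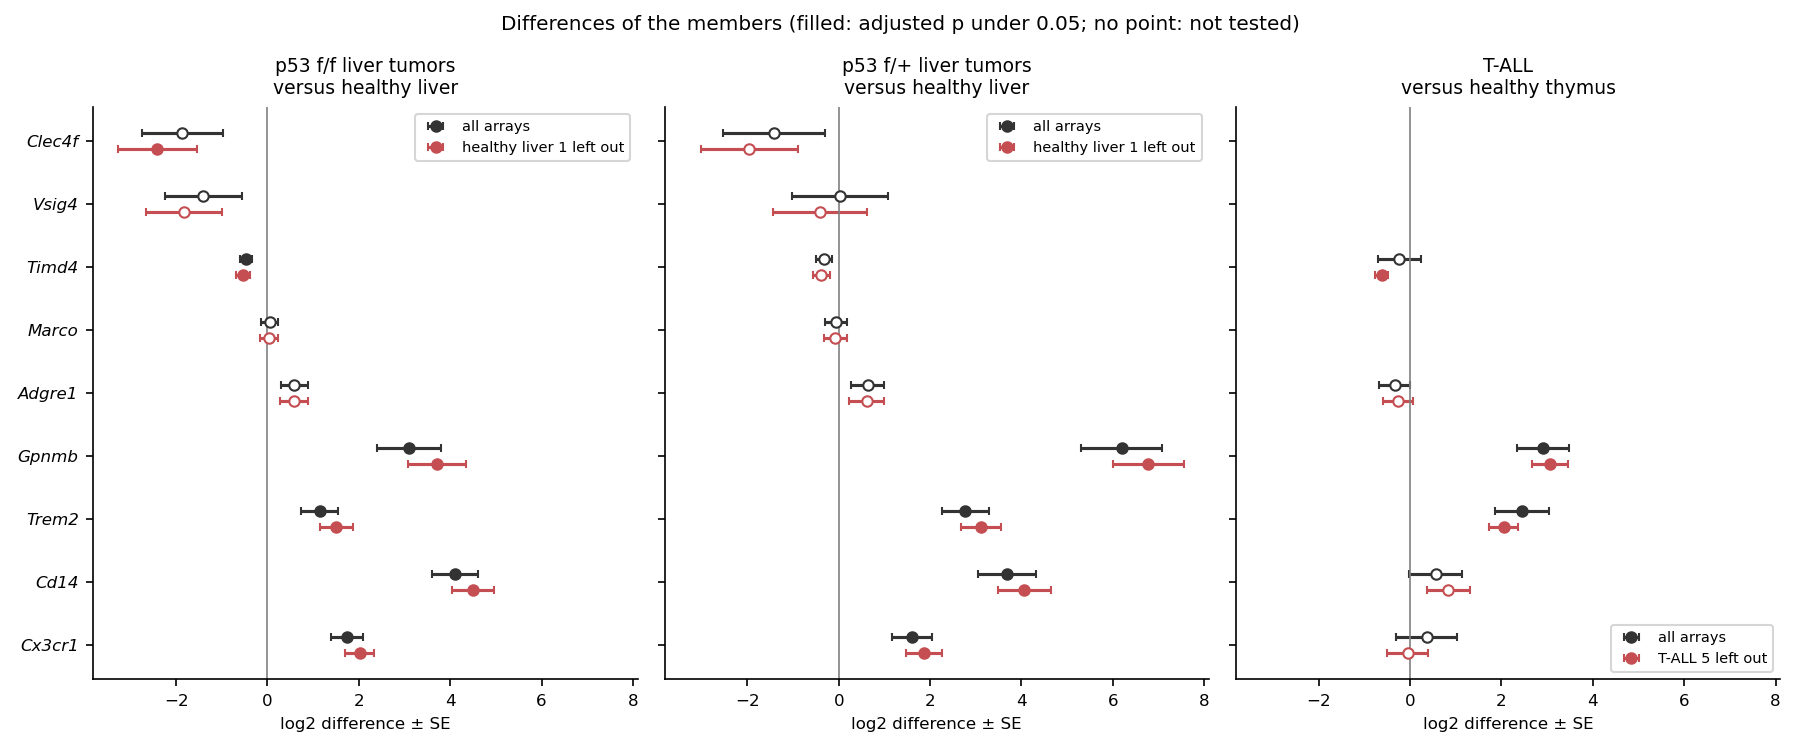
Log2 differences with SE (horizontal axis) of 9 members in p53 f/f and p53 f/+ liver tumors against healthy liver and in T-ALL against healthy thymus, with all arrays (black) and without healthy liver 1 or T-ALL 5 (red). Filled points have an adjusted p under 0.05. Gpnmb, Trem2, Cd14 and Cx3cr1 are filled to the right of 0 in both liver panels, and Gpnmb and Trem2 in T-ALL.

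Tumor genotype was compared directly. Gpnmb in p53 f/f minus p53 f/+ tumors was −3.09 ± 0.80 (adjusted p = 0.0581), and Trem2 differed by −1.63 ± 0.46 (adjusted p = 0.0805). With all arrays 0 of 9 members were called, by limma, in either direction, beside 0.130% of all genes higher and 0.330% lower. At an unadjusted p under 0.05 these were the 2 members called, both lower, in the same limma fit. Healthy liver 1 is in neither group of this comparison, but it shares the fit and the set of genes tested. Without it Gpnmb and Trem2 were both called lower in p53 f/f tumors, beside 0.796% of genes higher and 1.30% lower. Gpnmb was then at −3.07 ± 0.69 (adjusted p = 0.0173) and Trem2 at −1.61 ± 0.39 (adjusted p = 0.025). Gpnmb was also called without healthy liver 5 (adjusted p = 0.0429), without the animal of liver tumors 1 and 2 (adjusted p = 0.0468) and without that of liver tumors 16 and 17 (adjusted p = 0.0387), and Trem2 without the last of these (adjusted p = 0.0235). Of the 20 p53 f/f tumors, 11 lay below all 8 p53 f/+ tumors for Gpnmb and 4 for Trem2, while the ranges overlapped. The other members differed by −1.42 (Vsig4, adjusted p = 0.507) to 0.43 (Cd14, adjusted p = 0.788).

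Tumors and healthy livers lay mostly on different chips. On the only chip with signals from both, liver tumors 28 and 29, from 1 p53 f/+ animal, minus 3 healthy livers gave 4.50 for Gpnmb, 1.89 for Trem2, 3.46 for Cd14 and −1.52 for Clec4f. Leaving out healthy liver 1, which is among the 3, gave 6.46, 3.16, 4.78 and −3.28. The directions of these 4 genes, Timd4 and Cx3cr1 on this chip were those of the whole group, but Adgre1 was at −0.29 there against 0.63 over all p53 f/+ tumors, Vsig4 at −0.59 against 0.03 and Marco at 0.34 against −0.07. No test is possible on 1 animal.

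In T-ALL Gpnmb and Trem2 rose as well. Gpnmb was 8.76, 9.09, 8.87, 9.25 and 8.91 in healthy thymi 1 to 5, and ran from 10.55 through 11.66 to 13.30 in the 9 leukemias. Trem2 was 6.26, 6.16, 6.41, 5.99 and 6.63 in the thymi and 7.37 to 11.92, median 8.61, in T-ALL, with 9.24 the highest once T-ALL 5 was left out. On normalized values the 8 leukemias other than T-ALL 5 lay above all 5 thymi for both genes. T-ALL 4 was also dim, with 30.21% of probes detected. Its Gpnmb signal of 649.1 lay within the 524.6 to 744.3 of the thymi. Its Trem2 signal of 46.90 lay below their 56.10 to 100.3, so its height above them rests on the normalization. In T-ALL 5 Gpnmb was not detected, and its normalized value of 10.64 stood on a signal of 19.90, against 524.6 to 744.3 in the thymi. The differences were 2.90 ± 0.57 for Gpnmb, 7.48-fold (adjusted p = 0.00212), and 2.45 ± 0.59 for Trem2, 5.46-fold (adjusted p = 0.0111). Without T-ALL 5 they were 3.06 ± 0.39 (adjusted p = 2.6e-05) and 2.05 ± 0.32 (adjusted p = 0.000184). The 2 genes were the only ones called higher among 6 tested members, beside 1.40% of all genes higher and 8.93% lower, or 10.6% and 18.8% without T-ALL 5. The 5 thymi shared 1 chip that held no leukemia, so chip and group cannot be told apart. With chip as a random block the differences stayed at 2.90 and 2.45 with adjusted p values of 0.066 and 0.195. With the next brightest Gpnmb probe the difference was 1.06 (adjusted p = 0.0401), and with the third 1.80 (adjusted p = 0.468). For the third probe the T-ALL median was 5.72, against 5.20 in the thymi. Its highest normalized T-ALL value was 15.45, although no T-ALL signal of that probe exceeded 98.70. Median scaling gave 1.91 for Gpnmb (adjusted p = 0.233), and the authors' log2 values 1.03 for Trem2 (adjusted p = 0.0693).

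The remaining members were low in the thymus. Clec4f and Cd5l were detected on 0 of 14 thymic arrays and Vsig4 on 3 of 9 leukemias, with 6.20, 5.64 and 7.02 in T-ALL 4, 8 and 9 against 4.75 to 5.24 in the thymi. Neither these genes nor Marco passed the filter on low values, so they were not tested. Timd4 was 5.60, 5.68, 5.98, 6.04 and 6.17 in the thymi and at most 5.60 in the leukemias other than T-ALL 5. With all arrays it differed by −0.24 and was not called (adjusted p = 0.812). Without T-ALL 5 it was called lower, at −0.62 ± 0.14 (adjusted p = 0.00447). Median scaling in place of quantiles also called it lower, with T-ALL 5 included. Cd14 was 7.09, 7.10, 7.11, 6.76 and 7.44 in the thymi and 5.41 to 9.78 in T-ALL, a difference of 0.56 ± 0.58 (adjusted p = 0.643). Both ends were dim arrays. The lowest was T-ALL 5, not detected at a signal of 3.800. The highest was T-ALL 4, whose signal of 166.7 lay within the 112.5 to 197.7 of the thymi. Without T-ALL 5 the Cd14 difference was 0.84 ± 0.47 (adjusted p = 0.199). Cx3cr1 differed by 0.36 ± 0.66 (adjusted p = 0.803) and by −0.05 without T-ALL 5 (adjusted p = 0.944), and Adgre1 by −0.34 ± 0.33 (adjusted p = 0.61).

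Healthy liver and healthy thymus differed in 3 of 9 tested members. Clec4f and Vsig4 were detected on 9 and 10 of 10 livers and on 0 of 5 thymi, and were at least 22.4-fold and at least 25.2-fold higher in liver (adjusted p = 0.000197 and 0.000162). These bounds set the mean of the livers against the dimmest signal detected on each thymus array. Gpnmb went the other way, with a log2 difference of −3.11 ± 0.97 (adjusted p = 0.00687). Over all 12580 genes 19.6% were higher and 27.7% lower in liver. Leaving out healthy liver 1 and T-ALL 5 together, a choice made after seeing the data, called the same 3 members, with Gpnmb at −3.71 (adjusted p = 7.2e-05), beside 25.9% of genes higher and 36% lower. Trem2, Cd14 and Cx3cr1 differed by −0.31, 0.10 and −0.49 (adjusted p = 0.712, 0.923 and 0.53), and Cd14 changed sign to −0.29 without healthy liver 1.

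The liver tumor effect, averaged over both genotypes, was then set against the T-ALL effect. Cd14 was the only member called, rising more in liver tumors by 3.43 ± 0.86 (adjusted p = 0.00289, and 3.54 without healthy liver 1 and T-ALL 5, adjusted p = 0.000256), beside 13.4% of all genes called higher and 5.21% lower. Without those 2 arrays Cx3cr1 was called too, at 2.03 (adjusted p = 0.00376, against 1.34 ± 0.73, adjusted p = 0.195, with them), beside 19.1% of genes higher and 13.3% lower. For Gpnmb and Trem2 the difference between tissues was 1.08 ± 1.20 (adjusted p = 0.554) and −0.83 ± 0.76 (adjusted p = 0.464).

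Ordered by mean level over all arrays, Gpnmb ran from p53 f/+ tumors through T-ALL, p53 f/f tumors and healthy thymus down to healthy liver. Trem2 began with T-ALL, followed by p53 f/+ tumors, p53 f/f tumors, healthy thymus and healthy liver. Without T-ALL 5, T-ALL and p53 f/+ tumors changed places for both genes. The T-ALL mean was then 12.03 for Gpnmb, against 11.99 in p53 f/+ tumors, and 8.34 for Trem2, against 8.67. Clec4f and Vsig4 were highest in healthy liver, then in p53 f/+ and p53 f/f tumors, then in both thymic groups. Cd14 and Cx3cr1 were highest in p53 f/f tumors, followed by p53 f/+ tumors and T-ALL. Without T-ALL 5 the Cx3cr1 mean in T-ALL was 6.43, below healthy thymus at 6.49. With all arrays, every pair of neighbouring groups in the order overlapped in range for all 10 members.

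Other macrophage genes in liver tumors gave mixed counts. These and the later list counts stand beside 15.1% of all genes rising and 14.2% falling in p53 f/f tumors. The shares were 7.65% and 5.04% in p53 f/+ tumors. Without healthy liver 1 they were 19.4% and 18.8% in p53 f/f tumors and 13.4% and 11.7% in p53 f/+ tumors. Of 12 further Kupffer cell genes, 2 rose and 4 fell in p53 f/f tumors, with a median difference of −0.56. Fcna, a ficolin of resident macrophages, differed by −1.86 (adjusted p = 0.0134), Id3, a transcription regulator needed for Kupffer cell identity, by −1.65 (adjusted p = 3.74e-05), and Slc11a1, a metal transporter of phagosomes, by 1.67 (adjusted p = 0.000626). In p53 f/+ tumors 2 rose and 1 fell, among them Spic, a regulator of iron-recycling macrophages, at 1.22 (adjusted p = 0.0361). Of 16 tested pan-macrophage genes, 6 rose and 0 fell in p53 f/f tumors (median 0.62), and 7 rose and 0 fell in p53 f/+ tumors (median 0.97). With healthy liver 1 left out 10 and 7 rose, and of 11 tested Kupffer cell genes 2 rose and 4 fell in p53 f/f tumors and 2 rose and 2 fell in p53 f/+ tumors. Mpeg1, which encodes a pore-forming protein of phagosomes, differed by 1.65 (adjusted p = 0.00203) in p53 f/f tumors, while Csf1r, the growth factor receptor of the lineage, was at 0.16 (adjusted p = 0.631). Lyz2, a lysozyme gene, and Fcer1g, an Fc receptor subunit, both differed by 2.17 in p53 f/+ tumors (adjusted p = 0.0175 and 0.00595).

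Of 11 tested lipid-associated macrophage genes besides Gpnmb and Trem2, 5 rose and 0 fell in each tumor group, with medians of 0.75 and 1.26, and the counts were also 5 and 0 with healthy liver 1 left out. Cd63, a lysosomal tetraspanin, rose by 4.09 and 4.33 (adjusted p = 6.83e-10 and 1.59e-07), and Lpl, lipoprotein lipase, by 3.04 and 3.14 (adjusted p = 4.49e-13 and 4.63e-10), with every tumor above every healthy liver for Lpl. In p53 f/+ tumors the list also included Lgals3, galectin-3, at 3.80 (adjusted p = 0.000103). Several genes of this list are made by other cells too, so the list does not count macrophages.

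Partners of the members were read from lists of their pathways. Tyrobp, the adaptor of Trem2, rose by 0.93 in p53 f/f tumors (adjusted p = 0.0128) and by 1.56 in p53 f/+ tumors (adjusted p = 0.00363). Of 4 tested Trem2 signalling partners, 2 rose in p53 f/f and 3 in p53 f/+ tumors, with 0 falling. Cx3cl1, the ligand of Cx3cr1, rose by 2.34 (adjusted p = 4.95e-05) and 2.11 (adjusted p = 0.0056), and 5 and 4 of 9 tested growth factor and recruitment ligands rose. Leaving out healthy liver 1 raised these counts to 8 and 7, and those of the Trem2 partners to 3 and 4. Around Cd14, the endotoxin-binding protein gene Lbp rose by 1.14 and 1.15 (adjusted p = 0.00107 and 0.0155) and Tlr4 by 1.15 in p53 f/+ tumors (adjusted p = 0.00436), against 0.41 in p53 f/f tumors (adjusted p = 0.157). Of 7 tested members of that complex 2 rose and 1, Traf6, fell in p53 f/f tumors, and 3 rose in p53 f/+ tumors. Of 10 tested lysosomal genes of the MiT/TFE program, which also drives Gpnmb, 3 rose and 0 fell in each group, with Neu1, sialidase, at 1.18 and 0.91 (adjusted p = 1.13e-06 and 0.0027), and Mitf itself at 0.04 and 0.08 (adjusted p = 0.847 and 0.765).

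In T-ALL few genes of the macrophage lists passed the test beside Gpnmb and Trem2. Of 16 pan-macrophage genes tested, 0 passed in either direction by limma with all arrays (1 was higher and 1 lower at an unadjusted p under 0.05), and 2 rose and 1 fell without T-ALL 5. Tyrobp was at −0.33 (adjusted p = 0.749), Csf1r at 1.01 (adjusted p = 0.593) and C1qb, a complement gene of macrophages, at −0.34 (adjusted p = 0.885). Of 11 further lipid-associated genes, 0 rose and 1, Fabp5, fell (log2 difference −1.05, adjusted p = 0.00174), and 1 rose and 3 fell without T-ALL 5. The median of all genes was −0.30 in this comparison, and −0.05 without T-ALL 5. Over all genes 1.40% were called higher and 8.93% lower, or 10.6% and 18.8% without T-ALL 5. Markers of other blood cells moved as well: 7 of 9 tested neutrophil markers fell (8 without T-ALL 5), with S100a8 at −4.98 (adjusted p = 0.000121), and their part in the result for Gpnmb and Trem2 was not tested.

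Markers of other cell types also moved in liver tumors. Of 9 tested neutrophil markers 5 rose in p53 f/f and 2 in p53 f/+ tumors (5 and 4 without healthy liver 1), and the mean over 11 of them ran from 5.05 to 5.87 in healthy liver, 5.37 to 9.03 in p53 f/f tumors and 5.70 to 6.66 in p53 f/+ tumors, with Mmp8 and Cxcr2 detected on 0 arrays of any of the 3. Of 7 stellate cell and fibroblast markers 3 rose in each tumor group and 1, Lrat, fell in p53 f/f tumors, with Col1a1 at 1.89 (adjusted p = 0.00347) and 3.26 (adjusted p = 0.000523). Of 8 endothelial markers 2 rose and 1, Stab2, fell in p53 f/f tumors and 4 rose and 1, Kdr, fell in p53 f/+ tumors. Dendritic, T and NK, and B cell markers gave 0 calls by limma in both groups, over 4, 5 and 2 tested genes, and also 0 at an unadjusted p under 0.05. Leaving out healthy liver 1, 1 T and NK cell marker was called higher in p53 f/f tumors. The mean over hepatocyte markers ran from 9.74 to 11.87 in healthy liver (11.57 to 11.87 without healthy liver 1) and from 11.20 to 12.14 and from 10.78 to 11.71 in the 2 tumor groups. Of 6 tested hepatocyte markers 0 were called by limma with all arrays (1 was higher in p53 f/f and 0 in p53 f/+ tumors at an unadjusted p under 0.05, with 0 lower) and 2 fell in each tumor group without healthy liver 1, where the medians were −0.19 in p53 f/f and −0.30 in p53 f/+ tumors. In p53 f/f tumors the endothelial markers then gave 2 higher and 3 lower, and the stellate cell and fibroblast markers 3 higher and 2 lower, while the counts of both lists in p53 f/+ tumors were as with all arrays. The part of these shifts in the members' values was not tested.

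Across tumors the members fell into separate patterns. Over the 15 p53 f/f animals, with the tumors of an animal averaged first, 6 relations were computed by permutation tests with 100000 resamples. Clec4f and Vsig4 ran together at a Pearson r of 0.979 (Spearman rho 0.964, permutation p = 1e-05 for both, the smallest they can give, adjusted p = 6e-05), and at 0.971 without the 2 animals farthest from the median of Clec4f. Gpnmb and Trem2 gave an r of 0.689 (permutation p = 0.00498, adjusted p = 0.0149) and a rho of 0.704 (permutation p = 0.00429, adjusted p = 0.0129). Without the 2 animals farthest from the median of Gpnmb this was 0.612 (permutation p = 0.025, adjusted p = 0.0749), which missed the threshold over 13 animals. With chip means subtracted the values were 0.988 for Clec4f and Vsig4 and 0.798 for Gpnmb and Trem2 (permutation, adjusted p = 6e-05 and 0.00117). Clec4f and Timd4 gave 0.525 (rho 0.379, permutation p = 0.0417 and 0.164, adjusted p = 0.0835 and 0.247).

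No relation between the resident and the lipid-associated genes passed after adjustment. Gpnmb with Clec4f had an r of −0.380 and a rho of −0.424 (permutation p = 0.159 and 0.116, adjusted p = 0.239 and 0.232), and Trem2 with Clec4f −0.056 and −0.104 (permutation p = 0.841 and 0.713, adjusted p = 0.944 and 0.713). Without the 2 animals farthest from the median of Trem2 the latter were −0.585 and −0.516 (permutation p = 0.0387 and 0.0744, adjusted p = 0.0774 and 0.149). Cd14 with Gpnmb gave −0.021 and −0.132 (permutation p = 0.944 and 0.638, adjusted p = 0.944 and 0.713). Single tumors differed in how the genes combined. Liver tumor 14 had the highest Gpnmb, 14.39, and the lowest Clec4f, 4.68, of the p53 f/+ tumors, whereas liver tumor 17 had both high, at 12.26 and 11.26. Liver tumor 8 had Gpnmb at 7.51 with Clec4f at 10.76, and liver tumor 24 had Gpnmb at 7.89 with Clec4f at 5.79. The dim liver tumor 13 parted the resident genes themselves, with Vsig4 at 10.96 (signal 499.5) and Clec4f at 4.78 (signal -2.700, not detected).

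**Figure D3:**
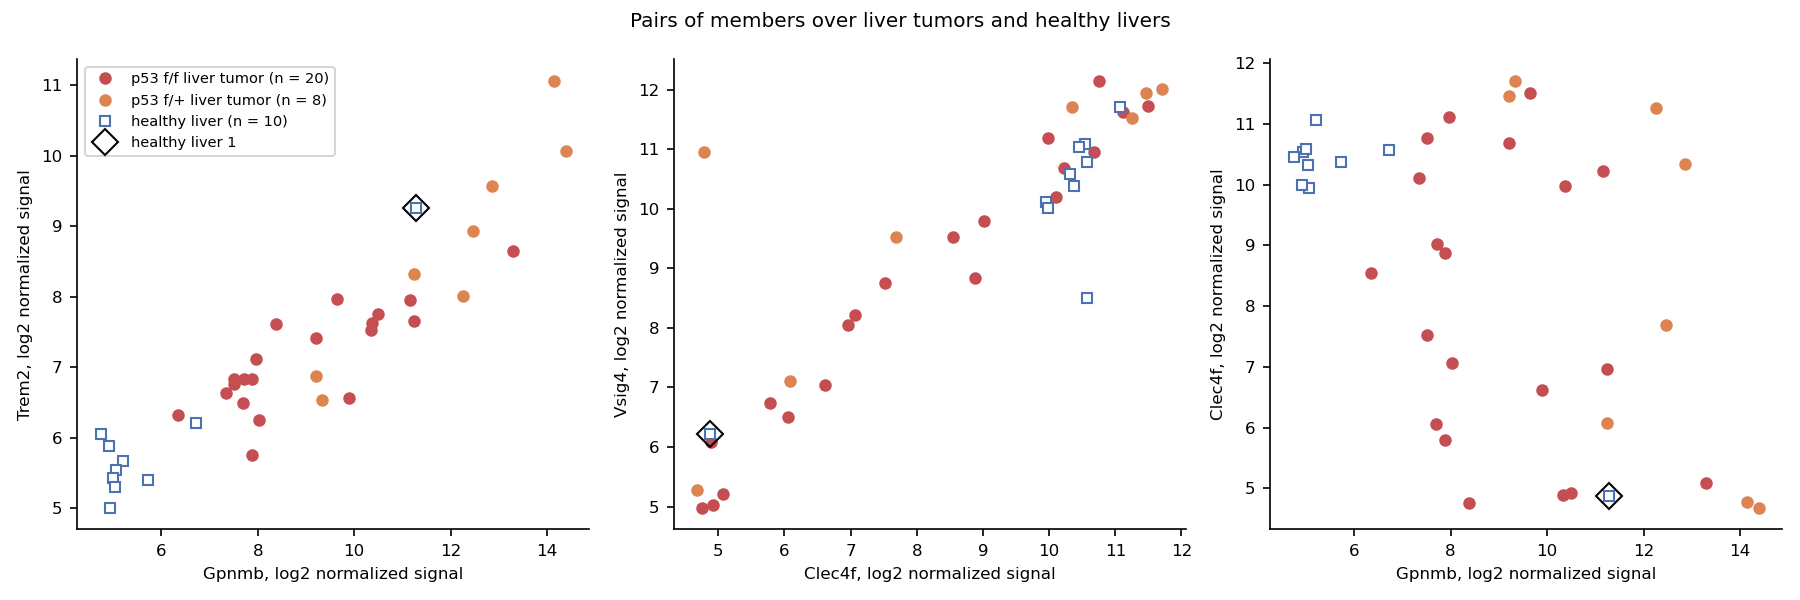
Pairs of members (log2 normalized signal on both axes) over 20 p53 f/f tumors, 8 p53 f/+ tumors and 10 healthy livers, 1 point per array, with healthy liver 1 marked by a black diamond. Trem2 climbs with Gpnmb and Vsig4 with Clec4f, while tumors with low and high Clec4f occur at most levels of Gpnmb. The p53 f/+ tumor off the Clec4f and Vsig4 line is liver tumor 13, at 4.78 and 10.96.

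As a description over the 28 liver tumor arrays, which include animals with 2 tumors, the genes most like each of 4 members among 11131 genes were ranked by Pearson r. For Gpnmb they were Trem2 (0.891), Galnt15 (0.818), Cd84 (0.814), Plau (0.808) and Adgrl4 (0.805). For Trem2 they were Arl11 (0.904), Cracr2b (0.892), Gpnmb (0.891), Galnt15 (0.889) and Adgrl4 (0.889), so the 2 members stood in each other's list. For Clec4f the first was Clec4g (0.965), a lectin of sinusoidal endothelium, then Dnase1l3 (0.914), Vsig4 (0.893), Oit3 (0.886) and Cyp2e1 (0.882), the last a hepatocyte gene. For Cd14 they were Lypd1 and Ext1 (both 0.871), Tspo (0.847), Hdac7 (0.846) and Arfgap3 (0.834), with 0 members among them. Over the same arrays Adgre1 correlated with Gpnmb at −0.0406 and with Trem2 at 0.165, and Cd14 with Cx3cr1 at 0.335.

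Tumors of 1 animal could differ widely, and the differences between animals were not computed for comparison. For the 8 animals with 2 arrays the difference between both tumors was 0.45 to 6.78 for Clec4f, median 1.55, and 0.04 to 5.59 for Gpnmb, median 2.08. For Vsig4 it was 0.48 to 6.67, for Trem2 0.01 to 3.18 and for Cd14 0.02 to 2.65. Liver tumors 14 and 15 of 1 p53 f/+ animal had Clec4f at 4.68 and 11.46, Vsig4 at 5.28 and 11.95, and Gpnmb at 14.39 and 9.20. In that animal the tumor with the resident genes had the lower Gpnmb. Liver tumors 5 and 6 of 1 p53 f/f animal had Clec4f at 9.98 and 4.89 with Gpnmb at 10.38 and 10.34, so the resident gene differed by 5.09 and Gpnmb by 0.04. Liver tumors 1 and 2 showed the reverse, with Clec4f at 6.06 and 5.08 and Gpnmb at 7.69 and 13.29. Cx3cr1 was 8.56 and 6.23 in the same pair.

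**Figure D4:**
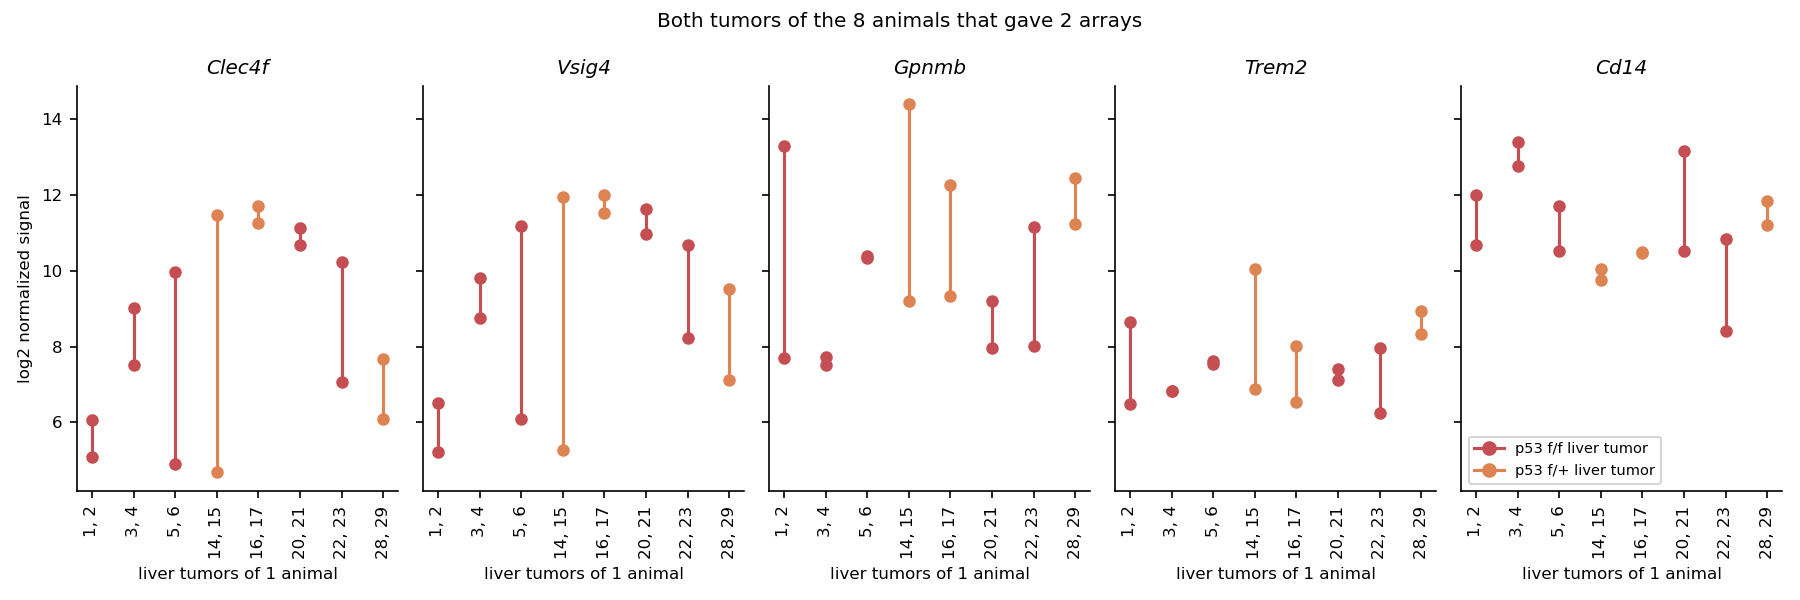
Log2 normalized signal (vertical axis) of Clec4f, Vsig4, Gpnmb, Trem2 and Cd14 in both tumors of the 8 animals that gave 2 arrays, joined by a line, with p53 f/f in red and p53 f/+ in orange. The longest line for Clec4f joins liver tumors 14 and 15 (6.78) and that for Gpnmb liver tumors 1 and 2 (5.59).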

How the data were processed

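Total RNA of liver tumors, T-ALL, healthy livers and healthy thymi was measured on Illumina mouse bead arrays. The deposited intensity values were bead-averaged scanner signals, not normalized between arrays, each with a Detection value that the authors deposited as a fraction from 0 to 1, from which the detection p-value was taken as 1 minus that fraction. The authors also deposited processed log2 values, used here as an alternative and for liver tumor 12, which has no signal. The submitters' processing notes name limma, with the version not given in the sources used here. Signals and authors' log2 values ranked the probes of an array alike (Spearman rho 1.000), except on T-ALL 7, at 0.7862. The cause was not tested, and T-ALL 7 was kept in the T-ALL fits on both kinds of value. Signals of 52 arrays were background-corrected and quantile-normalized with neqc (limma 3.58.1 in R 4.3.3, statmod 1.5.0, offset 16). Genes were represented by the probe with the highest mean signal and tested if detected (p under 0.05) on at least 5 arrays of the fit. Liver arrays, thymic arrays and all arrays were fitted separately with lmFit and eBayes (trend and robust), two-sided, with Benjamini-Hochberg adjustment over all genes tested. The animal was a random block (correlation 0.184 in liver, 0.500 in the joint fit). Of 45281 probes, 34885 had 1 gene symbol, 18 several and 10378 none listed. The number of arrays limits the precision, and nothing in the labels gives the depth behind a bead average.

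The members and gene lists were chosen with earlier results of these data known. Named list genes were up to 3 called genes per list and comparison with the largest change. Others named (Csf1r, Mitf, Tyrobp, C1qb, Kdr, Lbp, Tlr4 in p53 f/f tumors) were chosen after their values were seen. The script was tested on simulated data. Left out was 1 deposited array that no label names. Promoter sequences came from RefSeq (GRCm38.p6).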

Additional observations from a re-analysis of the deposited data

Results flagged for a closer look

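In 40 groups of values (10 genes in the groups of 4 to 10 arrays), a single array stood far from the rest of its group in 9. Chance alone flags about 1 in 20 groups. The array labelled healthy liver 1 accounted for 5 of them. There Clec4f was 4.87 where the next lowest healthy liver was 9.95, and Gpnmb was 11.28 (next highest 6.73), Trem2 9.26 (6.21), Cd14 10.73 (7.49) and Cx3cr1 8.50 (6.26). In that array the hepatocyte marker mean was also the lowest of the healthy livers, at 9.74. T-ALL 5, the nearly blank array, accounted for Timd4 at 8.65 (next 5.60), Trem2 at 11.92 (9.24) and Cd5l at 5.12 (4.69), with Timd4 and Cd5l not detected there. Marco was 6.74 in healthy liver 10, against 5.58 in the next.

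Cd14 changed differently in the 2 tissues, rising more in liver tumors against healthy liver than in T-ALL against healthy thymus, by 3.43 on the log2 scale (adjusted p = 0.00289, limma interaction).

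Liver tumor 12 has no scanner signal, so it entered no comparison except the alternative fits on the authors' log2 values. On the authors' log2 scale it lay above every healthy liver for Gpnmb (14.00, highest liver 10.99), Trem2 (10.87 and 9.33), Cd14 (11.75 and 10.47) and Adgre1 (8.37 and 8.19). Its Clec4f was 7.85 and that of the lowest healthy liver 7.94, both under the median of 7.97 over all probes of the liver arrays. Its Vsig4 was 10.37, within the 8.14 to 11.40 of the healthy livers.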

How the results depend on the processing

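Gpnmb and Trem2 in p53 f/+ tumors and Cd14 in both liver tumor groups kept their direction under every alternative run (42, 40, 40 and 40). They kept their call under every alternative with a test. The contrast of p53 f/+ tumors within the shared chip, counted among these, had none. With median scaling in place of quantile normalization, genes called were 3536 higher and 404 lower in p53 f/f tumors (0 members lower), 543 and 163 in p53 f/+ tumors, 61 and 5 between genotypes, 251 and 1581 in T-ALL (1 member higher, 1 lower), and 3178 and 306 for the tissue difference (2 members higher), with 2 members lower in liver than thymus. Signs turned there for Adgre1 between genotypes (0.27), Cx3cr1 in T-ALL (−0.27), Marco (−0.07) and Cd14 (−0.56) between liver and thymus, and Timd4 (0.56) and Trem2 (0.15) for the tissue difference. Without a filter 7 and 22 genes were called between genotypes. Detection on at least 50% of the arrays of a fit gave 0 members lower in p53 f/f tumors, 556 genes lower in T-ALL and 389 lower for the tissue difference. An offset of 50 gave Trem2 0.78 in p53 f/f tumors (adjusted p = 0.0887) and 1 member lower between genotypes. The authors' log2 values gave Gpnmb 1.32 (adjusted p = 0.0957) and Trem2 0.33 (adjusted p = 0.316) in p53 f/f tumors with 2 members higher, 473 genes higher in p53 f/+ tumors, 0 and 1 between genotypes, and in T-ALL 1 member and 88 genes higher.

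Without healthy liver 1, Clec4f in p53 f/f tumors was −2.41 (adjusted p = 0.0249) with 2 members lower, Vsig4 in p53 f/+ tumors −0.41 with 1534 and 1334 genes, genotypes gave 91 and 149 genes with 2 members lower, and Cd14 between liver and thymus was −0.29. Without T-ALL 5, Cx3cr1 was −0.05, with 1 member lower and 1091 and 1929 genes. Without T-ALL 4 and 5 there were 1 member lower and 2062 and 2611 genes, and for the tissue difference Timd4 at 0.18, 2 members higher and 1569 genes lower. Leaving out healthy liver 1 and T-ALL 5 together, chosen after seeing the data, gave for the tissue difference 2 members higher, 1667 genes lower and Timd4 at 0.13, and between liver and thymus Cd14 at −0.29. With chip as a random block Vsig4 was −0.11 in p53 f/+ tumors, and T-ALL gave 0 members higher, with 9 and 393 genes. Averaging tumors of an animal gave 1 member lower between genotypes (Gpnmb −3.41, adjusted p = 0.0405). Title numbers did not pair samples (correlations −0.0779 to 0.157 over 10 pairs and −0.0777 to 0.139 over 5, best with their own number in 0 and 2). With that replicate block, p53 f/f tumors gave Clec4f −2.06 (adjusted p = 0.0446), Adgre1 1.17 (adjusted p = 0.00346), Trem2 1.29 (adjusted p = 0.0533) and 2 members lower, and T-ALL gave Timd4 0.10, 0 members higher (Gpnmb 3.03, adjusted p = 0.073; Trem2 2.43, adjusted p = 0.0752) and 22 and 492 genes. Other probes gave Adgre1 0.30 between genotypes and Gpnmb 0.44 and −0.17 in p53 f/f tumors (adjusted p = 0.536 and 0.624). Subtracting chip means turned Cd14 with Gpnmb to 0.115, and adding p53 f/+ animals gave Clec4f with Timd4 0.586 (permutation, adjusted p = 0.0123).

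Leaving out 1 animal or array at a time gave, in p53 f/f tumors, Clec4f −2.41 to −1.62, Trem2 1.03 to 1.51, Marco 0.00 to 0.22 and 1 to 2 members lower. In p53 f/+ tumors it gave Vsig4 −0.53 to 0.59, Marco −0.17 to 0.10, 665 to 1534 genes higher and 399 to 1334 lower. Between genotypes it gave Clec4f −1.03 to 0.51, Adgre1 −0.48 to 0.26, Marco 0.00 to 0.22, 1 to 91 genes higher, 1 to 149 lower and 0 to 2 members lower. In T-ALL it gave Cx3cr1 −0.05 to 0.61, 47 to 1091 genes higher, 463 to 1929 lower and 0 to 1 members lower, and Marco between liver and thymus −0.03 to 0.09. Without the 2 farthest animals Gpnmb with Trem2 was 0.612 (permutation, adjusted p = 0.0749). The cause of these changes was not tested. Dim members near the detection limit (Timd4, Marco, Adgre1) allow only weak statements, and Cd5l none.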
